A study of Mus musculus with 2 samples.

Results

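Mouse Serpina3f, Serpina3g, Serpina3h, Serpina3i, Serpina3m and Serpina3n belong to one array of serine protease inhibitor (serpin) genes on chromosome 12, and they were chosen on their measured levels, because Serpina3n on one side and Serpina3f and Serpina3g on the other had differed in opposite directions between these libraries. Of the 6 genes, 5 had counts among 31054 features. Serpina3h was not analysed here. The counts came from 2 single-cell RNA-seq libraries of hepatic stellate cell (HSC) preparations, 1 per genotype, from male C57BL/6 mice. All mice received CCl4 for 4 weeks to injure the liver, with tamoxifen to activate the recombinases and diphtheria toxin to kill cells bearing its receptor. The p16-LRTD control bore the receptor allele R26-CAG-LSL-RSR-tdTomato-2A-DTR beside p16-CreERT2, so the toxin receptor allele and the toxin were present there too, but the Dre recombinase was absent. The p16-Alb-LRTD mice carried Alb-DreERT2 in addition, a Dre driven by the albumin promoter of hepatocytes, which restricts the receptor to hepatocytes that have also switched on p16. The study saw very mild fibrosis of liver zones 1 and 2 only in mice with both Alb-DreERT2 and the receptor allele. It speculates that this may come from leaky receptor expression through loxP-Stop-loxP. The p16-LRTD control lacks Alb-DreERT2, so an effect of such a leak cannot be told apart from the genotype compared here. The number of mice per library is not stated in the sources used here. With 1 library per genotype there is no replicate check and no test, and every interval below is a 95% interval for counting error only.

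Serpins trap proteases by an irreversible change of shape. Humans have a single SERPINA3 gene, for alpha-1-antichymotrypsin, while in the mouse this gene has multiplied into a cluster whose members differ in the loop that meets the protease. Serpina3n is a secreted inhibitor of granzyme B and of neutrophil proteases, and it is known as an acute phase gene in liver and as a marker of reactive glia in brain. Serpina3g, also called Spi2A, lacks a secretion signal, acts in the cell on cathepsins, and is induced by interferon gamma and NF-kappaB signals in leukocytes. Serpina3f is its close relative and inhibits trypsin-like proteases. Serpina3m and its neighbour Serpina3k are hepatocyte genes.

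All 6 genes lie on the plus strand of chromosome 12 (GRCm38). The array runs over 199.8 kb from Serpina3f (104214544 to 104221129) through Serpina3g (104236245 to 104241939), the pseudogene Serpina3h (104247905 to 104253669), Serpina3i (104263122 to 104269372) and Serpina3m (104338486 to 104394257) to Serpina3n (104406729 to 104414329). The annotated span of Serpina3m contains that of Serpina3k. Of the 90-base words in the last 500 bases of annotated transcripts, none of Serpina3f, Serpina3n or Serpina3m occurs in another serpin transcript. For Serpina3g 80 of 1229 words (6.51%) and for Serpina3i 69 of 822 (8.39%) occur in Serpina3f, Serpina3g, Serpina3h or Serpina3i as well, so part of their reads could be split or lost.

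The promoters of 4 of the 6 genes are in the RefSeq table used here (GRCm38.p6). The 250 bases before the start site are shown for Serpina3f and Serpina3g, which were higher in p16-Alb-LRTD, for Serpina3n, which was lower, and for Serpina3i, which did not differ beyond counting error. Capitals mark matches on either strand to TTCNNNGAA (bound by STAT factors), ACANNNTGT (core of the glucocorticoid receptor site), the NF-kappaB letters (GGG, any 2 bases and TTTCC) or TATAAA. None of the 4 has a match to the interferon response letters, GAAA, any 2 bases and GAAA. The windows are chr12:104214294-104214543, chr12:104235897-104236146, chr12:104262872-104263121 and chr12:104406458-104406707, in the order below, all on the plus strand.
Serpina3f: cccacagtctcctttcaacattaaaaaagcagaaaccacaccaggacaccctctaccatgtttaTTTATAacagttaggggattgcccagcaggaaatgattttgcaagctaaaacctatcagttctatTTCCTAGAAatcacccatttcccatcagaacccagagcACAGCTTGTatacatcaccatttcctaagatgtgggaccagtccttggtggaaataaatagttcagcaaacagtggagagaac
Serpina3g: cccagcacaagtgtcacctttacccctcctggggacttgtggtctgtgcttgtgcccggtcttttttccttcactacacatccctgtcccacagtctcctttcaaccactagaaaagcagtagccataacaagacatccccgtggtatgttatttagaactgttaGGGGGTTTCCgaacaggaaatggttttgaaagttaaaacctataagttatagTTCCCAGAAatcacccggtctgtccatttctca
Serpina3i: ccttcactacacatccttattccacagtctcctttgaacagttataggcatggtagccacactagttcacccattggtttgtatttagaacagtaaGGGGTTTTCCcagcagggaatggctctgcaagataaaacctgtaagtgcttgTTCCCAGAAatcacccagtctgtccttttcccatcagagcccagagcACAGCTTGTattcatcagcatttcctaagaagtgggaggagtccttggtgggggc
Serpina3n: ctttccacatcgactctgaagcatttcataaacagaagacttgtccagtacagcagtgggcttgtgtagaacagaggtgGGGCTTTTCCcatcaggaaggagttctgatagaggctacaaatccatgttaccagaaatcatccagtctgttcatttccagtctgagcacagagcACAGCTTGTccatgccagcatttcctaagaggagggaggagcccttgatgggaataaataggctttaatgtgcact

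The letters TTCNNNGAA occur in Serpina3f (TTCCTAGAA, from -121 to -113), Serpina3g (TTCCCAGAA, from -33 to -25) and Serpina3i (TTCCCAGAA, from -102 to -94), counted back from the start site. In a local alignment these 3 matches stand opposite one another, and opposite them Serpina3n reads TTACCAGAA (from -123 to -115), which is no match. Over all 27025 promoters of this length, 7.18% hold TTCNNNGAA. The letters ACAGCTTGT, a match to the glucocorticoid receptor core that 5.91% of promoters hold, are in the Serpina3f, Serpina3i and Serpina3n windows. The Serpina3g window ends before the stretch that would stand opposite them, at 104236146, while the annotated span of the gene starts at 104236245. Whether Serpina3g holds these letters is therefore not shown, and the positions in its window depend on the start site used. A match to the NF-kappaB letters, held by 1.4% of promoters, is in Serpina3g, Serpina3i and Serpina3n. For the remaining sets the shares are 3.04% (interferon response) and 13% (TATAAA). Serpina3f has another RefSeq start site, whose window is not shown. Counted from it, TTCCTAGAA lies from -210 to -202 and ACAGCTTGT from -172 to -164, and the window holds no match to TATAAA. The aligned part of the windows is 76.8% identical over 164 columns between Serpina3f and Serpina3g, and 63.8% over 240 columns between Serpina3f and Serpina3n. A match is a description of letters and no evidence of binding.

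Cells were sorted into 3 classes by summed markers per 10000 unique molecular identifiers (UMIs), and were kept out of every class when they passed more than 1 cut. The stellate class (Lrat, Ecm1, Hgf and Reln, at least 15) held 7852 p16-LRTD cells and 6621 p16-Alb-LRTD cells, the endothelial class (Kdr, Stab2 and Ptprb, at least 8) 430 and 283, and the Kupffer class, the resident macrophages (Clec4f, Cd5l, Vsig4 and Csf1r, at least 8), 283 and 178. Within 10% of a cut lay 17 and 13 stellate, 3 and 2 endothelial, and 10 and 6 Kupffer cells. All 10 further stellate, 8 endothelial and 8 Kupffer markers were highest in their own class in both libraries. Kept cells had a median of 17177 and 18273 UMIs. The libraries shared 95 barcodes, 0.852% and 1.08% of their barcodes. Cdkn2a, whose promoter drives the Cre, was at 6.12 and 4.63 counts per 1000000 UMIs (CPM) in stellate cells, but its target here was the hepatocyte, which was not isolated. At these levels fewer cells that express a gene and less of its RNA per cell cannot be told apart, also from the shares of cells given below.

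In stellate cells Serpina3n was lower and Serpina3f and Serpina3g were higher in p16-Alb-LRTD. Serpina3n had 4553 UMIs in p16-LRTD and 634 in p16-Alb-LRTD, or 31.9 CPM (31.0 to 32.9) and 5.07 CPM (4.68 to 5.48). The level was 6.30-fold lower, a log2 ratio of -2.66 (-2.78 to -2.53). Serpina3f had 268 and 1460 UMIs, or 1.88 CPM (1.66 to 2.12) and 11.7 CPM (11.1 to 12.3). This is 6.21-fold higher, a log2 ratio of 2.63 (2.45 to 2.83). Serpina3g had 1923 and 6145 UMIs, or 13.5 CPM (12.9 to 14.1) and 49.1 CPM (47.9 to 50.4), 3.64-fold higher at a log2 ratio of 1.87 (1.79 to 1.94). The intervals of the 2 libraries are far apart for each of these genes. Serpina3i and Serpina3m were near the floor of detection. Serpina3i had 60 and 57 UMIs (log2 ratio 0.12, -0.43 to 0.66), and Serpina3m 18 and 10.

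These ratios chose the genes and are a description. Of the 5 members with counts, 3 passed the minimum of 5 CPM on average in stellate cells, among 10179 genes. At a 2-fold difference, 2 members were higher, where 0.923% of all genes were, and 1 was lower, where 0.943% were. By log2 ratio Serpina3f was number 3 and Serpina3g number 7 from the top, and Serpina3n number 11 from the bottom. Serpina3f passed the minimum only through p16-Alb-LRTD, where it was high, so its rank and count also follow from the minimum. The median log2 ratio of all genes was -0.05.

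**Figure D1:**
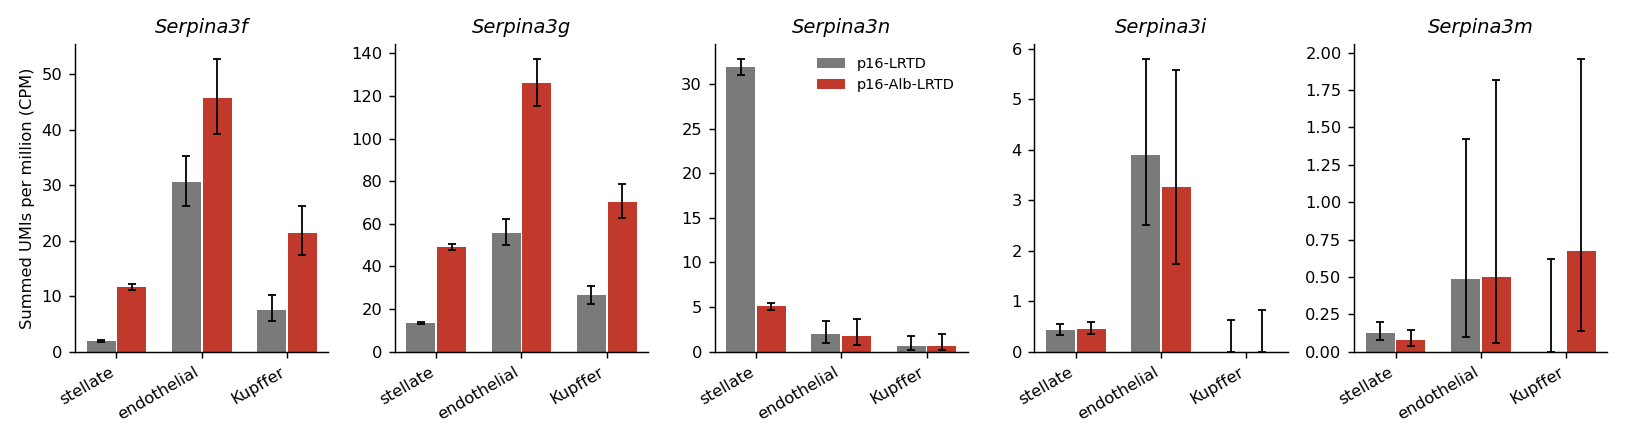
Level of each measured gene in CPM (y axis, a different scale in each panel) by cell class (x axis) for p16-LRTD (grey) and p16-Alb-LRTD (red), 1 library each, with exact Poisson 95% intervals. Serpina3n stands out in stellate cells of p16-LRTD at 31.9 CPM, while Serpina3f and Serpina3g are highest in endothelial cells and higher in p16-Alb-LRTD in all 3 classes.

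In endothelial cells Serpina3f had 188 and 182 UMIs, or 30.5 CPM (26.3 to 35.2) and 45.7 CPM (39.3 to 52.8). Its log2 ratio was 0.58 (0.28 to 0.88). Serpina3g had 344 and 502 UMIs, or 55.9 CPM (50.1 to 62.1) and 126.0 CPM (115.2 to 137.6), a log2 ratio of 1.17 (0.97 to 1.38). Both were higher in p16-Alb-LRTD, but by less than in stellate cells. The difference of log2 ratios between stellate and endothelial cells was 2.05 (1.71 to 2.40) for Serpina3f and 0.69 (0.48 to 0.90) for Serpina3g. Serpina3n had 12 and 7 UMIs, 1.95 and 1.76 CPM, with a log2 ratio of -0.15 and an interval from -1.73 to 1.31, so a difference was not detectable at this depth. Serpina3i, at 24 and 13 UMIs, had its highest level of the 3 classes here, 3.90 and 3.26 CPM, a log2 ratio of -0.26 (-1.35 to 0.77). Of the 2 members that passed the minimum, Serpina3g was past 2-fold higher, as 2.0% of 9858 genes were, and none was past 2-fold lower, as 3.65% were.

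In Kupffer cells Serpina3f was at 7.57 CPM (5.52 to 10.1) and 21.5 CPM (17.4 to 26.2), a log2 ratio of 1.5 (0.98 to 2.05). Serpina3g was at 26.6 CPM (22.6 to 31.1) and 70.4 CPM (62.9 to 78.6), a log2 ratio of 1.41 (1.13 to 1.69). In cells of 10000 to 30000 UMIs the Serpina3g log2 ratio was 2.12, and the median depth of the class was 19514 and 25101.5 UMIs. Both were past 2-fold higher, as 1.70% of 9514 genes were, and none of the members was past 2-fold lower, as 1.87% of all genes were. Serpina3n had 4 and 3 UMIs and Serpina3i none in either library, which allows up to 3 UMIs. A few cells held most of these UMIs. In p16-LRTD, 4 of 283 cells had 10 or more Serpina3g UMIs, a limit chosen after the values were seen, and they held 141 of 158 Serpina3g and 32 of 45 Serpina3f UMIs. In p16-Alb-LRTD 7 of 178 cells held 270 of 315 and 63 of 96.

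The cells rich in Serpina3g had less of 3 markers that define the class than the cells without. The remaining class marker, Csf1r, is not given for them, and these levels have no interval. Clec4f was at 1708 against 2446 CPM in p16-LRTD and at 2076 against 3385 CPM in p16-Alb-LRTD. Cd5l was at 4502 against 4801 CPM and at 2632 against 5866 CPM, and Vsig4 at 1501 against 2602 CPM and at 733.5 against 2689.7 CPM. C1qa, a macrophage complement gene, was at 2855 against 3305 CPM and at 3945 against 4052 CPM. Cxcl9 and Gbp2 were named for these cells after their values were seen, and no gene list was counted in so few cells. Cxcl9, a chemokine induced by interferon gamma, was at 4174 CPM in the 4 cells and at 2.71 CPM in the 264 Kupffer cells without a Serpina3g UMI. In p16-Alb-LRTD it was at 4616 CPM in the 7 cells and at 10.9 CPM in the 144 without. Gbp2, a guanylate-binding protein of the same response, was at 1164 against 26.2 CPM and at 1376 against 78.9 CPM. Without the 5 richest cells of each library the Kupffer log2 ratios were 2.74 for Serpina3g and 2.35 for Serpina3f, but for Serpina3g this leaves out all 4 rich cells of p16-LRTD and at most 5 of the 7 of p16-Alb-LRTD. In the 279 and 171 cells under 10 Serpina3g UMIs, Serpina3g was at 2.92 CPM (1.70 to 4.67) and 10.6 CPM (7.70 to 14.1) and Serpina3f at 2.23 CPM (1.19 to 3.81) and 7.74 CPM (5.33 to 10.9). As these cells were chosen by their Serpina3g UMIs, their levels are set against no other class.

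By summed level, Serpina3f and Serpina3g were highest in endothelial cells in both libraries, then in Kupffer and then in stellate cells. The place of Kupffer cells rests on the few rich cells. For Serpina3n stellate cells were highest. The endothelial and Kupffer values of Serpina3n, 1.95 (1.01 to 3.41) and 0.673 CPM (0.183 to 1.72) in p16-LRTD, overlap. RNA freed from other cells gives a floor to such values. The median endothelial check marker reached 0.211% and 0.253% of its endothelial level in stellate cells, where Serpina3f reached 6.15% and 25.5% and Serpina3g 24.1% and 39.0%. The 8 markers ranged up to 31.6% and 36.5%, reached by Eng, which was at 375.7 and 410.0 CPM in stellate cells. The part of free RNA in the result was not tested. The median stellate check marker reached 2.23% and 1.58% of its stellate level in endothelial cells, and the 10 markers ranged up to 10.7% and 11.99%. Serpina3n reached 6.11% (3.15 to 10.7), inside that range, and 34.7% (13.9 to 71.9). In stellate cells with no UMI of the endothelial check list other than Eng, 2684 and 2843 cells, the log2 ratios were 2.78 for Serpina3f, 2.10 for Serpina3g and -2.79 for Serpina3n.

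Between the libraries, the share of stellate cells with a UMI of Serpina3f, Serpina3g or Serpina3n moved with the levels. The intervals of the Kupffer shares of the 2 libraries overlap, as do those of Serpina3f in endothelial cells. Between classes the shares did not always follow the levels. In p16-Alb-LRTD Serpina3g was higher by level but lower by share in Kupffer than in stellate cells. After thinning each cell to 5000 UMIs, a Serpina3n UMI was found in 11.0% of the p16-LRTD and 1.72% of the p16-Alb-LRTD stellate cells (26.5% and 5.57% unthinned, at median depths of 17024.5 and 18136 UMIs). For Serpina3n the thinned share of Kupffer cells was 0.719% (0.087 to 2.57) and 1.13% (0.137 to 4.02), in cells of the median depths given above. The p16-Alb-LRTD stellate share, 1.72% (1.42 to 2.07), lies inside the Kupffer interval, although the level, 5.07 CPM, was above the 0.671 CPM of Kupffer cells, which rests on 3 UMIs. A Serpina3g UMI was found in 5.87% and 15.1% of stellate cells (14.9% and 34.1% unthinned), in 21.8% and 38.5% of endothelial cells and in 3.24% and 7.34% of Kupffer cells. A Serpina3f UMI was found in 1.17% and 3.93% of stellate cells (2.39% and 9.26% unthinned), 12.4% and 18.7% of endothelial cells and 2.16% and 4.52% of Kupffer cells. No class here is known to lack Serpina3f or Serpina3g. Barcodes rich in hepatocyte markers had 2 and 0 Serpina3f UMIs and 1 and 0 Serpina3g UMIs.

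The other serpins of the cluster were sparse. Serpina3c, a Serpina3 paralog on the minus strand, had 37 and 102 UMIs in stellate cells, a log2 ratio of 1.65 (1.10 to 2.24). Serpina3k was lower, with 97 and 39 UMIs (-1.13, -1.70 to -0.58). Serpina1a, Serpina1b, Serpina1c, Serpina1d and Serpina1e, the mouse genes for alpha-1-antitrypsin and hepatocyte products like Serpina3k, had log2 ratios from -1.26 to -0.62 in stellate cells. Serpina11 was higher, with 21 and 37 UMIs (1.01, 0.20 to 1.85). Among the genes with a stellate ratio, Serpina3c, Serpina3f and Serpina3g follow one another along the chromosome. Serpina3a and Serpina3j had no UMI in any class.

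**Figure D2:**
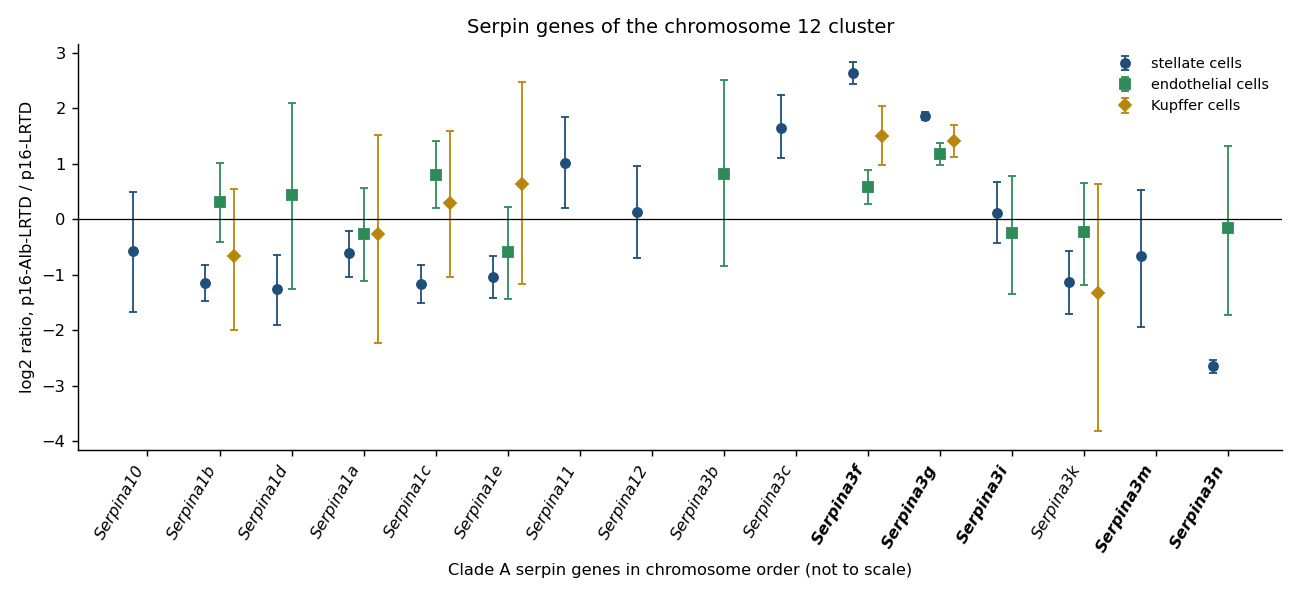
Log2 ratio of p16-Alb-LRTD over p16-LRTD (y axis, exact 95% intervals of counting error) for the clade A serpins of chromosome 12 with at least 10 UMIs in a class, in chromosome order (x axis, not to scale), in stellate (circles), endothelial (squares) and Kupffer cells (diamonds). In stellate cells Serpina3f (2.63) and Serpina3g (1.87) lie at one extreme and Serpina3n (-2.66) at the other, with Serpina3i and Serpina3m between them at 0 within their intervals.

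Stellate cells were next split into 4 bins of equal number over the pooled cells by the UMI share of Col1a1, Col1a2 and Col3a1, the collagens of activated HSCs. The bin with most collagen held 36.8% of the p16-LRTD and 11.0% of the p16-Alb-LRTD stellate cells. Serpina3n increased with collagen in both libraries. From the lowest to the highest bin it was at 11.8, 13.3, 22.1 and 53.1 CPM in p16-LRTD and at 1.73, 3.22, 5.04 and 18.5 CPM in p16-Alb-LRTD. It was lower in p16-Alb-LRTD in each of the 4 bins, with log2 ratios of -2.77, -2.05, -2.13 and -1.52. Given equal shares of the bins, the log2 ratio was -1.81 instead of -2.66, and the part of cell makeup in the result was not tested further.

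Serpina3f and Serpina3g were lower in the bin with most collagen than in that with least. From the lowest to the highest bin Serpina3g was at 18.04, 15.3, 10.8 and 12.1 CPM in p16-LRTD and at 60.4, 51.0, 44.1 and 28.7 CPM in p16-Alb-LRTD. Serpina3f was at 3.49, 2.39, 1.44 and 1.19 CPM and at 13.7, 14.6, 8.93 and 5.92 CPM. Both were higher in p16-Alb-LRTD in all 4 bins, with log2 ratios from 1.97 to 2.63 for Serpina3f and from 1.25 to 2.03 for Serpina3g.

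Bins by type I interferon genes gave another order. Serpina3f was at 1.41 CPM in the lowest and 4.09 CPM in the highest bin of p16-LRTD, and at 5.12 and 16.8 CPM in p16-Alb-LRTD. Serpina3g was at 10.6 and 23.4 CPM and at 38.0 and 60.8 CPM. Both were again higher in p16-Alb-LRTD in every bin. Serpina3n went the other way in p16-LRTD, at 37.8, 30.8, 24.3 and 29.2 CPM from the lowest to the highest bin. The intervals of the lowest bin, 36.1 to 39.4 CPM, and the highest, 26.4 to 32.2 CPM, do not overlap. In p16-Alb-LRTD it was at 7.67, 7.88, 4.84 and 3.43 CPM.

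Bins by glucocorticoid receptor targets divided the libraries most, as the highest bin held 421 p16-LRTD (5.36%) and 3198 p16-Alb-LRTD stellate cells (48.3%). In that bin Serpina3g was at 36.3 and 59.2 CPM, a log2 ratio of 0.70 (0.53 to 0.89), and Serpina3f at 7.53 and 15.7 CPM, a log2 ratio of 1.06 (0.68 to 1.47). Serpina3n was at 56.7 and 6.64 CPM there, a log2 ratio of -3.09 (-3.29 to -2.89). In both libraries the values of all 3 genes were highest in the highest bin. For Serpina3n in p16-Alb-LRTD the interval there overlaps that of the lowest bin, at 5.01 CPM. The bins sum UMIs, so abundant targets, such as Dusp1 (765.3 CPM in p16-LRTD stellate cells) and Mt1 (589.6 CPM), weigh most. Gene by gene, the targets had median log2 differences between -0.09 and 0.06 in cells with against without these serpins, as given below. With equal shares of these bins the log2 ratios were 1.55 for Serpina3f, 1.23 for Serpina3g and -3.07 for Serpina3n, so the 2 higher genes came closer to 0 and the lower one moved away from it. The genes that set the bins differed between the libraries themselves, and their part in the result was not tested.

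**Figure D3:**
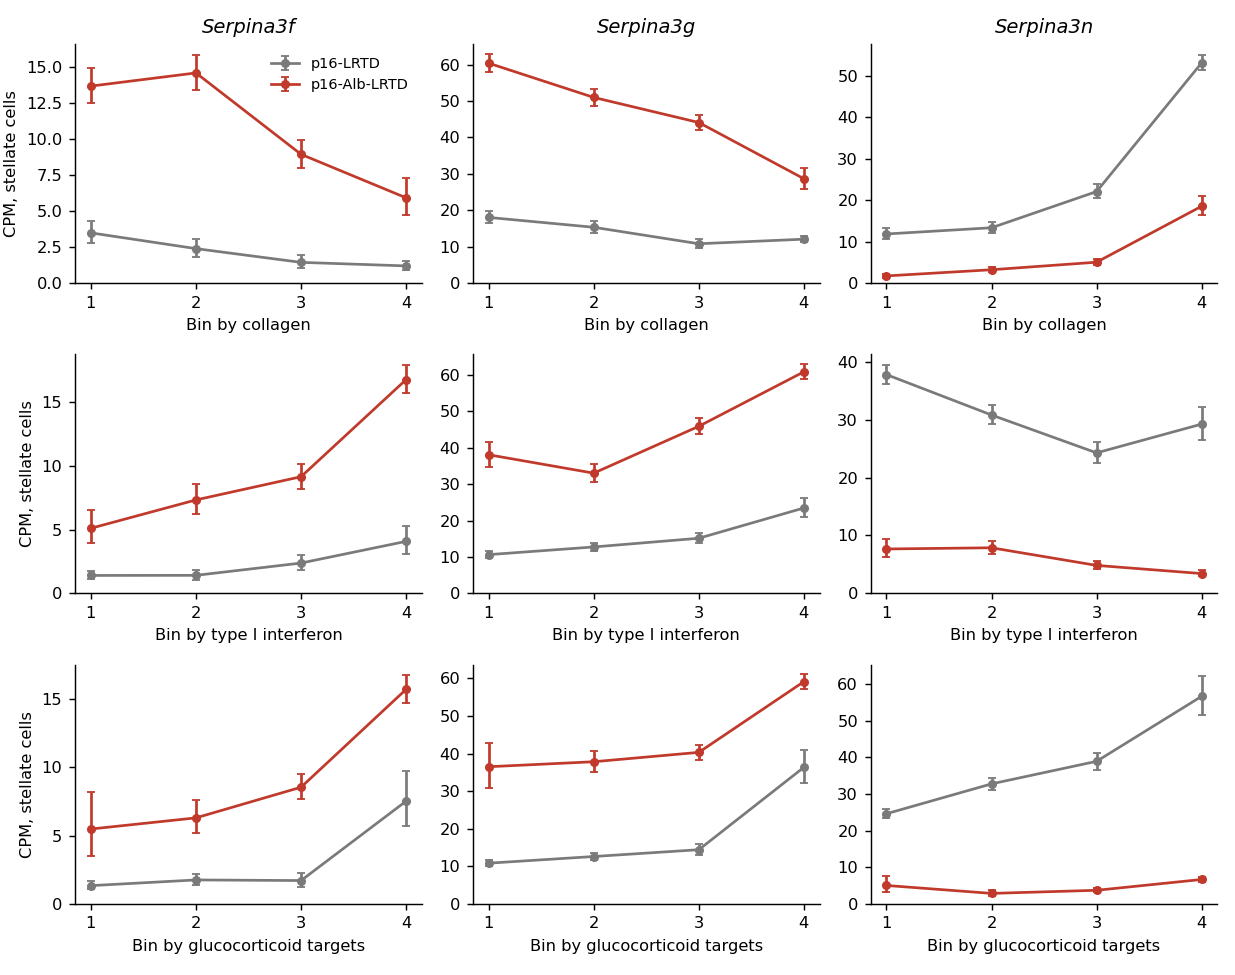
Level in stellate cells (y axis, CPM, with exact Poisson 95% intervals) of Serpina3f, Serpina3g and Serpina3n (columns) in bins of the pooled stellate cells from lowest (1) to highest (4) by collagen, type I interferon or glucocorticoid target UMIs (rows), for p16-LRTD (grey) and p16-Alb-LRTD (red). The lines of the 2 libraries do not cross in any panel, and only Serpina3n increases with collagen, to 53.1 CPM in p16-LRTD.

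Gene lists of signalling pathways, proteases and hepatocyte RNA were described by how many of their measured genes lay above 0. Whether these pathways act on the serpins in these cells was not tested. In stellate cells all 14 type I interferon genes had a log2 ratio above 0 (median 1.09, beside -0.05 over all genes), from Rsad2 (1.75), Ifi44 (1.5) and Irf7 (1.40) to Bst2 (0.71), Rtp4 (0.24) and Ifit2 (0.19). All 14 glucocorticoid targets were above 0 (median 0.66), led by Zbtb16 (3.44), Fkbp5 (2.0) and Angptl4 (1.71), with Sult1a1 (0.37), Tsc22d3 (0.34) and the receptor gene Nr3c1 (0.01) at the end. Of 12 NF-kappaB targets 11 were above 0 (median 0.39), with Tnfaip3 (1.19), Cxcl1 (0.90) and Birc3 (0.84) highest and Nfkb1 (0.11), Sod2 (0.10) and Tnfaip2 (-0.22) lowest.

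Acute phase genes and STAT3 targets, the group to which Serpina3n is usually assigned, showed no common direction in stellate cells, with 10 genes above and 8 below 0 and a median of 0.15. Cebpd (1.18), Pim1 (1.0) and Cebpb (0.98) were highest. Saa3 (-2.13), Timp1 (-1.52) and Itih4 (-0.47) were lowest, and Saa3, an acute phase serum amyloid gene, had 19.4 and 4.44 CPM. Of 13 proteases that serpins of this kind can inhibit, or related ones, 6 reached the minimum in stellate cells, all cathepsins, and all 6 were below 0 (median -0.42). Ctsl (-0.15), Ctsh (-0.21) and Ctsd (-0.39) were highest and Ctsk (-0.44), Ctsb (-0.46) and Ctss (-0.95) lowest. Of the hepatocyte gene list 2 genes reached the minimum of 5 CPM in stellate cells, Trf (0.32) and Alb (-0.80), with a median of -0.24.

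**Figure D4:**
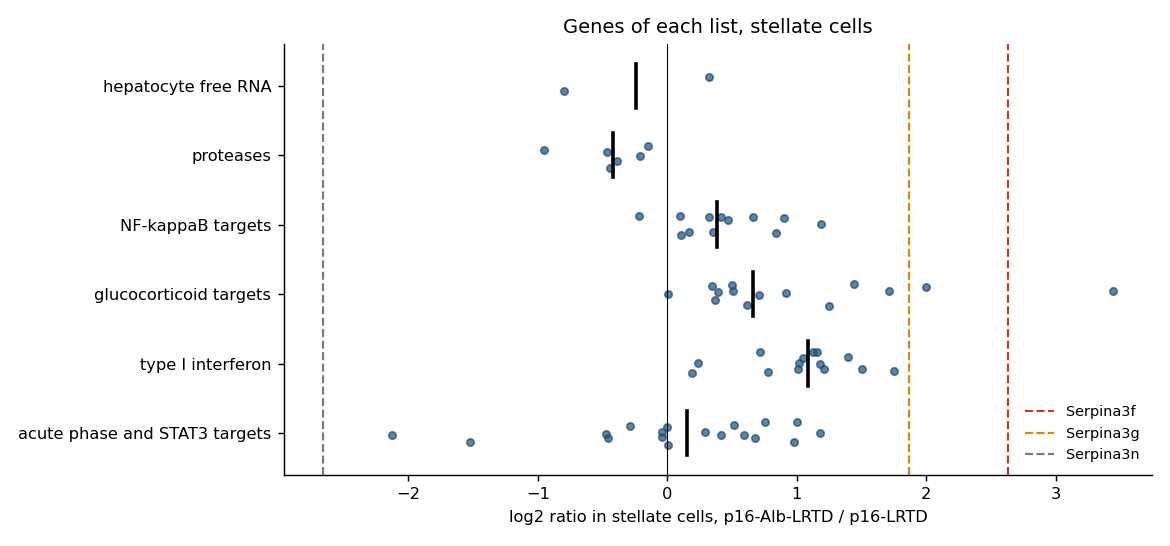
Log2 ratio of p16-Alb-LRTD over p16-LRTD in stellate cells (x axis) for the genes of each list with at least 5 CPM on average (points, spread vertically for display) with the list median (black bar), and the ratios of Serpina3f, Serpina3g and Serpina3n as dashed lines. The type I interferon and glucocorticoid lists lie above 0, with medians of 1.09 and 0.66, and Serpina3n (-2.66) lies below every gene shown.

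In Kupffer cells, where the median over all genes was -0.06, and in endothelial cells, where it was -0.10, the lists varied. In Kupffer cells all 15 type I interferon genes were above 0 (median 1.52) and all 14 NF-kappaB targets (0.83). In endothelial cells the medians were 0.91 for type I interferon genes (13 of 14 above 0) and 0.06 for NF-kappaB targets (7 of 13), of which Tnfaip2 (-1.94) and Ccl2 (-2.19) were lowest. Glucocorticoid targets were above 0 in 13 of 13 endothelial (0.68) and 12 of 13 Kupffer genes (0.44). The acute phase list had medians of 0.50 and 0.34, and the proteases of 0.14 and -0.23.

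Within a library, stellate cells with a Serpina3f UMI after thinning carried more RNA of several lists than those without, where the median over all genes lay between -0.01 and 0.01. In p16-LRTD all 14 type I interferon genes were higher in the 92 cells with Serpina3f (median log2 difference 0.60), and in p16-Alb-LRTD all 14 in 260 cells (0.48). NF-kappaB targets were higher for 11 of 11 (0.83) and 12 of 12 genes (1.19). For Serpina3g the type I interferon medians were 0.33 in 460 cells and 0.30 in 1000 cells, and those of NF-kappaB 0.48 and 0.74. Acute phase genes and STAT3 targets were higher for 15 of 18 (0.25) and 12 of 17 genes (0.24) with Serpina3f, and for 18 of 18 (0.20) and 14 of 17 (0.14) with Serpina3g. Glucocorticoid targets had medians between -0.09 and 0.06 for both genes, with 5 and 5 of 14 higher for Serpina3f and 9 and 5 of 14 for Serpina3g. The metallothioneins Mt1 (1.03 and 1.21) and Mt2 (1.11 and 1.72) and Angptl4 (1.12 and 0.44) were higher in the cells with Serpina3f. In p16-LRTD 2 of 14 type I interferon genes were higher in the 865 cells with Serpina3n (median -0.09), and in p16-Alb-LRTD 1 of 14 in 114 cells (-0.24). NF-kappaB targets were higher for 4 of 11 (-0.08) and 10 of 12 genes (0.46) with Serpina3n, acute phase genes and STAT3 targets for 7 of 18 (-0.04) and 12 of 17 (0.17), and glucocorticoid targets for 8 of 14 (0.04) and 6 of 14 (-0.02). Hepatocyte genes were higher for 3 of 5 (0.21) and 2 of 2 (0.86) with Serpina3n, and proteases for 4 of 6 (0.12) and 5 of 5 (0.39). For hepatocyte genes the medians were 0.04 and 0.09 with Serpina3f and -0.12 and -0.01 with Serpina3g. Median depths in p16-LRTD were 15598 and 17062 UMIs for cells with and without Serpina3f, 15347 and 17174.5 for Serpina3g, and 19416 and 16818 for Serpina3n, so the cells with Serpina3n were deeper. In p16-Alb-LRTD they were 18638.5 and 18110, 18523 and 18053.5, and 18965 and 18134.

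A Serpina3g UMI was more frequent in stellate cells with a Serpina3f UMI than in those without, although most cells with Serpina3g had none of Serpina3f. Of cells with Serpina3f 37.0% (27.1 to 47.7) in p16-LRTD and 53.5% (47.2 to 59.6) in p16-Alb-LRTD had Serpina3g, and of cells without it 5.50% (5.00 to 6.03) and 13.6% (12.7 to 14.4). In endothelial cells the shares were 26.9% and 21.04% in p16-LRTD and 43.4% and 37.4% in p16-Alb-LRTD, with overlapping intervals. Of stellate cells with Serpina3n 5.66% (4.22 to 7.42) had Serpina3g in p16-LRTD and 5.90% (5.35 to 6.47) of those without. In p16-Alb-LRTD the shares were 25.4% (17.7 to 34.4) and 14.9% (14.1 to 15.8).

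Over the 6 sums of class and library, the profile most like that of Serpina3f among 8923 genes was Serpina3g, at a distance of 1.12 between centred log2(CPM + 1) values, followed by Cdkn1a (1.29), Ifi44 (1.30), Nr4a2 (1.42) and Mlxip (1.46). The nearest to Serpina3g were Ifi44 (0.48), Gbp4 (0.95), Mlxip (1.02), Casp4 (1.05) and Klf2 (1.10). The nearest to Serpina3n were H1fx (1.29), Sesn3 (1.44), Serpini1 (1.44), Cdon (1.48) and Suox (1.49), genes of stellate cells that were lower in p16-Alb-LRTD by less, such as H1fx at 21.4 and 11.7 CPM. Serpina3n was at 6.38 from Serpina3f and 5.55 from Serpina3g. These 6 sums share 2 libraries, so the distances describe them only.

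Kept barcodes in no class had more Serpina3n in p16-Alb-LRTD, at a log2 ratio of 0.49 (0.29 to 0.68) over 194 and 113 barcodes. Barcodes of more than 1 class had less (-2.04, -2.87 to -1.27), as had those outside the limits on cells (-0.86, -1.02 to -0.69). Kept barcodes in no class with at least 20 UMIs per 10000 of a fibroblast and mesothelial list (Dpt, Wt1, Msln, Igfbp6, Mgp and Pi16), a limit chosen after the data were seen, numbered 62 in p16-LRTD and 18 in p16-Alb-LRTD. They were at 10501 and 9212 CPM of Dcn, a gene of mesenchymal cells, and at 20.1 and 32.2 CPM of Lrat, which defines HSCs. Serpina3n had 259 and 179 UMIs there, or 168.0 CPM (148.2 to 189.8) and 320.6 CPM (275.3 to 371.1), higher in p16-Alb-LRTD by a log2 ratio of 0.93 (0.65 to 1.21). Serpina3g was at 29.8 and 59.1 CPM (0.99, 0.29 to 1.66), and Serpina3f had no UMI in either library. The makeup of these barcodes also differed, with Wt1 at 879.7 and 544.4 CPM and Mgp at 1036 and 1918 CPM, and its part in the result was not tested. In stellate cells the same list summed to 108.8 and 74.7 CPM, and in those without a UMI of it the Serpina3n log2 ratio was -2.72.

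Barcodes rich in hepatocyte markers (at least 200 UMIs per 10000, before any limit on cells) numbered 56 and 55. Serpina3n was at 194.6 CPM (173.5 to 217.6) and 152.3 CPM (117.3 to 194.5) in them, which overlap. Serpina3m was at 372.8 CPM (343.3 to 404.1) and 166.6 CPM (129.9 to 210.5), where the hepatocyte list itself was at 62615 and 34628 CPM. The hepatocyte list was at 95.3 and 96.7 CPM in stellate cells, but Trf alone, at 61.0 and 76.2 CPM, made up most of it. The other 7 genes summed to 34.3 and 20.5 CPM, and each was lower in p16-Alb-LRTD, as were Serpina3n, Serpina3k and the Serpina1 genes. Among the 7, Apoa2 differed least, at 5.01 and 4.77 CPM. The part of hepatocyte RNA in the result was not tested. Without the 20% of cells richest in the hepatocyte list, the stellate log2 ratio of Serpina3n was -2.95. In barcodes of no class with at least 5 lymphocyte marker UMIs per 10000, 12 and 14 barcodes, Serpina3g was at 128.9 CPM (61.8 to 237.0) and 221.3 CPM (149.3 to 315.9).

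**Figure D5:**
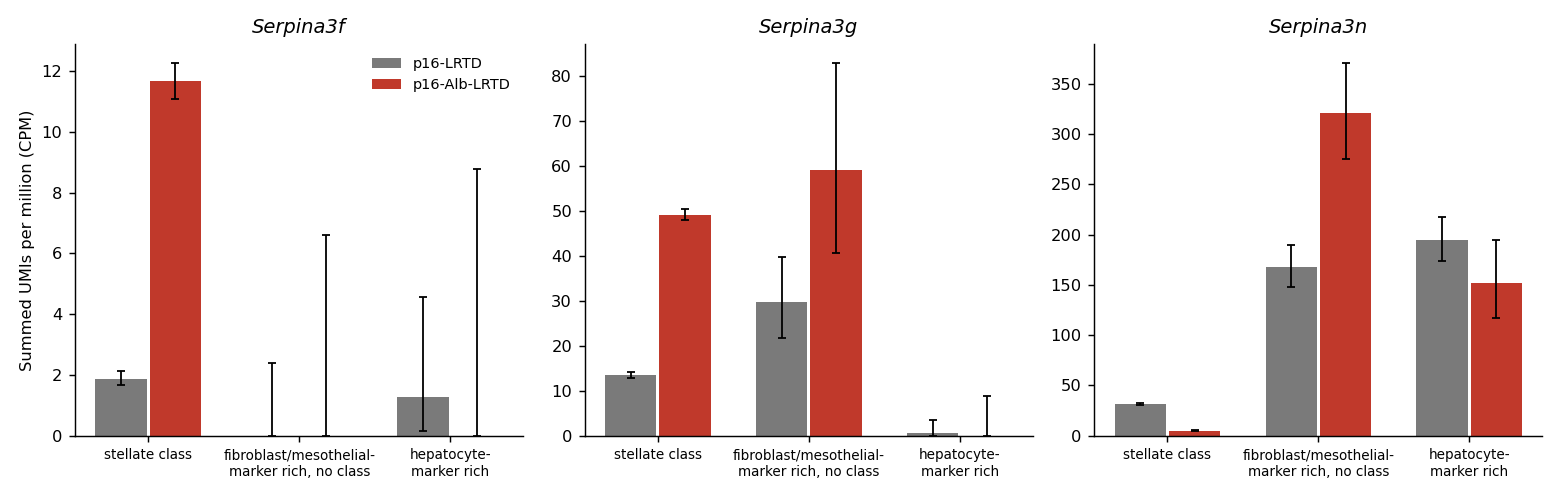
Level (y axis, CPM, a different scale in each panel, with exact Poisson 95% intervals) of Serpina3f, Serpina3g and Serpina3n in stellate cells, in barcodes of no class that are rich in fibroblast or mesothelial markers (62 and 18 barcodes), and in barcodes rich in hepatocyte markers (56 and 55), for p16-LRTD (grey) and p16-Alb-LRTD (red). Serpina3n is lower in p16-Alb-LRTD in stellate cells (5.07 against 31.9 CPM) and higher in the second group (320.6 against 168.0 CPM).

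The proliferation list summed to 166.8 and 36.8 CPM in stellate cells, and in those without a UMI of it the log2 ratios were 2.68 for Serpina3f, 1.94 for Serpina3g and -2.49 for Serpina3n. In Kupffer cells it summed to 103.3 and 50.3 CPM, and the fibroblast and mesothelial list to 23.2 and 2.46 CPM. The part of these lists in the results was not tested. Genotype and library cannot be told apart.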

How the data were processed

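Single-cell RNA was measured in 2 HSC preparations, 1 per genotype. Per the labels and the methods of the study, the deposited raw UMI counts were made with Cell Ranger 7.0.1 on mm10 from 10x 3' libraries. Depth was 193746596 and 162219167 UMIs. After the study's limits, barcodes were kept with 2000 to 7000 genes, at most 50000 UMIs and at most 5% mitochondrial UMIs, which gave 9004 and 7416. No doublet caller was run, and barcodes of more than 1 class (245 and 221) were left out. Counts were summed per class and library and given as CPM, with exact Poisson intervals, exact conditional intervals for log2 ratios (at least 10 UMIs over both libraries) and Clopper-Pearson intervals for shares (SciPy 1.17.1). Thinning to 5000 UMIs left out 16 and 7 stellate, 12 and 0 endothelial, and 5 and 1 Kupffer cells. All intervals cover counting error only. TMM (edgeR 4.0.16) and median-of-ratios (DESeq2 1.42.0) factors served as alternatives. Coordinates are those of GENCODE vM21, and promoters those of RefSeq, aligned with Biopython 1.88. Named genes are the 6 members, the other clade A serpins, the 3 highest and 3 lowest of each list in stellate cells, and the 5 nearest profiles. Markers, Cdkn2a and the genes given for Kupffer cells rich in Serpina3g (Cxcl9, Gbp2), for endothelial NF-kappaB targets and for glucocorticoid targets by Serpina3f (Mt1, Mt2, Angptl4) fall outside this rule and were chosen after values were seen. One gene list is not reported here. The members and lists were chosen with earlier results of these data known.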

Additional observations from a re-analysis of the deposited data

Results flagged for a closer look

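Serpina3n had opposite directions in 2 groups of cells. Its log2 ratio was -2.66 in stellate cells and 0.93 in the barcodes of no class that were rich in fibroblast or mesothelial markers. In the other 132 and 95 barcodes of no class it was 0.48 (0.21 to 0.75). Serpina1c, which encodes an alpha-1-antitrypsin, had a log2 ratio of -1.17 in stellate cells (1.79 and 0.799 CPM) and 0.80 in endothelial cells (7.47 and 13.1 CPM), with intervals on opposite sides of 0. Each group holds 1 library per genotype, and neither difference between groups was tested over samples.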

How the results depend on the processing

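No paired analysis was possible because a genotype is a single library here. Of 178 values from 13 planned and 7 later settings, 8 at a minimum of 50 UMIs could not move. Of the other 170, 146 stayed within the counting interval of the reported log2 ratio, and no ratio with an interval off 0 changed sign. Ranges were 1.55 to 2.78 for Serpina3f, 1.23 to 2.10 for Serpina3g and -3.07 to -1.81 for Serpina3n in stellate cells, 0.32 to 0.82 and 1.14 to 1.28 for Serpina3f and Serpina3g in endothelial cells, and 1.22 to 2.35 and 1.21 to 2.74 in Kupffer cells.

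Serpina3i and Serpina3m, whose intervals include 0, left those intervals with a change of sign in stellate cells, Serpina3i to -1.11 without endothelial check UMIs, and Serpina3m to 1.11 with no upper limits on cells and 0.70 with equal glucocorticoid bins. Values of the other genes in stellate cells beyond the counting interval follow, in the order Serpina3f, Serpina3g and Serpina3n where 3 are given. Equal shares of the collagen bins gave 2.34, 1.71 and -1.81, of the type I interferon bins 2.04, 1.52 and -2.36, and of the glucocorticoid bins 1.55, 1.23 and -3.07. The mean of per-cell CPM gave 2.40 for Serpina3f and 1.73 for Serpina3g. Without the 20% richest in hepatocyte RNA, Serpina3g was at 1.95 and Serpina3n at -2.95, and without endothelial check UMIs at 2.10 and -2.79. Serpina3n was at -2.49 with no upper limits on cells, at -2.49 without proliferation UMIs and at -2.85 without the 5 cells richest in it. In Kupffer cells Serpina3g was at 2.12 in cells of 10000 to 30000 UMIs, and without the 5 richest cells Serpina3g was at 2.74 and Serpina3f at 2.35. The cause was not tested. TMM scaling added 0.04 to 0.08 to every log2 ratio, and the number of genes past 2-fold stayed within 1.5 times of the reported count in each class and direction. Thinned to 3000 UMIs, Serpina3n was found in 7.12% and 1.04% of stellate cells.

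The depth limits Serpina3i, Serpina3m and, outside stellate cells, Serpina3n. Nothing here measures the spread between mice.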
